A study of Mus musculus with 10 samples.

Results

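Accessible chromatin was followed at 56 genes for axon guidance ligands and receptors: 9 Eph receptors of class A, 5 of class B, 5 ephrins of class A, 3 of class B, 7 class 3 semaphorins, 8 plexins, 2 neuropilins, 3 Slits, 4 Robo receptors, 2 netrins, 6 netrin receptors and 2 repulsive guidance molecules. The genes were taken from a list of these families, and they are 56 of 21896 protein-coding genes, of which 19559 had an accessible region. The study differentiated mouse embryonic stem cells of the wild-type C57BL/6 line ES-Bruce4 into neuromesodermal progenitors and profiled them by ATAC-seq, in which a transposase cuts open chromatin. It contained 10 libraries, 2 for each of 5 groups: day 2, day 3, day 6, day 7, and day 7 after 24 h with 50 ng/ml human Gdf11. All groups started with 10 ng/ml human bFgf at day 0, and 5 µM CHIR99021, an activator of Wnt signalling, was added at day 2. The labels call the day 2 cells epiblast stem cells and the later cells neuromesodermal progenitors, and do not say whether the day 2 cells were taken before CHIR99021. The stem cells had been kept on mouse embryo fibroblasts, which were depleted once before differentiation. The labels name 1 line and give no word on separate cultures for the 2 replicates, so p-values reflect the scatter among these libraries, which may be technical.

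Guidance cues attract or repel growing axons and migrating cells. Slits are secreted repellents that act through Robo receptors, and netrins attract through Dcc and repel through Unc5 receptors. Class 3 semaphorins are secreted and signal through neuropilins and plexins, whereas ephrins and Eph receptors signal at cell contacts and also set tissue boundaries in the early embryo. Repulsive guidance molecules bind neogenin, the product of Neo1. In the caudal embryo neuromesodermal progenitors give rise to spinal cord and somites, the tissues in which many of these cues later act, and Gdf11 is a ligand of the TGF-beta family that marks the passage from trunk to tail.

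For each gene, reads were summed over the accessible regions nearest to it within 50 kb, and the sum was expressed in CPM, counts relative to a library total that had been scaled between libraries by trimmed means (TMM). The 56 genes held 1791 of 246799 regions, of which 1294 had enough reads to be tested, and each of the 56 genes was tested. Of the 1791 regions, 1435 (80.1%) lay inside the gene span. The value of a gene is the accessibility of its surroundings and not its expression, and nearness is no evidence that a region controls the gene. In these bulk libraries, fewer cells with an open region and less accessibility per cell cannot be told apart.

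Reference promoter windows, from 250 bases before to 50 after a transcription start, were found for 46 of the 56 genes in RefSeq (GRCm38.p6, the assembly of mm10), and 52 of their 54 windows held an accessible region. Below, 6 windows are printed because accessibility changed at 4 of them, while 2 further starts of Robo2 serve as a comparison. They lie on mm10 at chr16:60605482-60605781 (minus strand, Epha6), chr4:136956767-136957066 (minus strand, Epha8), chr13:54949161-54949460 (plus strand, Unc5a) and, for Robo2 on the minus strand, chr16:75447244-75447543, chr16:75092721-75093020 and chr16:74411776-74412075. Capitals mark CpG dinucleotides.
Epha6: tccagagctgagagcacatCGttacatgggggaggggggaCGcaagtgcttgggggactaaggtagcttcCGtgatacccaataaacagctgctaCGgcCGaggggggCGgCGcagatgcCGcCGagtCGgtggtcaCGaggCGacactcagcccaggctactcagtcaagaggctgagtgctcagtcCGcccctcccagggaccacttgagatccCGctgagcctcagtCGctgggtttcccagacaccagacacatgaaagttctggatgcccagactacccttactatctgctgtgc
Epha8: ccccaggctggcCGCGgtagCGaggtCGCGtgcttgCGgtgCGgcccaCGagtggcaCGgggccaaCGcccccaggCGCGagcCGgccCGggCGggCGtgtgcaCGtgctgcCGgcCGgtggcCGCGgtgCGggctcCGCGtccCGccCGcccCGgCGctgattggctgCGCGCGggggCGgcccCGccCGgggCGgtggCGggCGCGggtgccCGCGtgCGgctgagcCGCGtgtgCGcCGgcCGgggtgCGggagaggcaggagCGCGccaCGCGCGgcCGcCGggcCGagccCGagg
Unc5a: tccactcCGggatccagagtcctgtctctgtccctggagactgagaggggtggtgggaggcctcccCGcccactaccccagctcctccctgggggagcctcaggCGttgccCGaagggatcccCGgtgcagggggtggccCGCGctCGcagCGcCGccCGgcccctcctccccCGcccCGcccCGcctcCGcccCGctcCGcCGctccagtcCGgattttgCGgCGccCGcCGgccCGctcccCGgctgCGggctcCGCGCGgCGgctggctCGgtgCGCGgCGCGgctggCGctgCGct
Robo2 upstream start: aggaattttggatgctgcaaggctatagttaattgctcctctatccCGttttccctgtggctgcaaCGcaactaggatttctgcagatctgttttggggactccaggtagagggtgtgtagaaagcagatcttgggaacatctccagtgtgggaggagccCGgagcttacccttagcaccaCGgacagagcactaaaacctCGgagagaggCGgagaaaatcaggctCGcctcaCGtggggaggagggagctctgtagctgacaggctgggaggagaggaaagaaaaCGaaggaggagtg
Robo2 middle start: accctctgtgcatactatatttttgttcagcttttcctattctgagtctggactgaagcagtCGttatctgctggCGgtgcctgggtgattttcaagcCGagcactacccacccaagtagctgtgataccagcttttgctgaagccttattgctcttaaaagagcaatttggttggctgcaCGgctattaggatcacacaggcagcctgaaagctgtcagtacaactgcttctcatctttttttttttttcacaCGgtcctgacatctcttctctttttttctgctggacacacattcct
Robo2 downstream start: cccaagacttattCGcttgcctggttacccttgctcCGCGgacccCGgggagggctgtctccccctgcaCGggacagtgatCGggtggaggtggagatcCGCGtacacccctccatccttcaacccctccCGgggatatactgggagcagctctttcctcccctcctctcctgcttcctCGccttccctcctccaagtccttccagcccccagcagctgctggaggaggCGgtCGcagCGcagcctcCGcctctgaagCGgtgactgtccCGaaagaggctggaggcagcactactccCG
The Epha8 window held 56 CpG dinucleotides and that of Epha6 held 15, against a median of 22.5 over the 54 windows and of 7 over 32851 windows of all genes. Median GC content was 65.2% over the 54 windows and 52.7% over all windows.

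At the Epha6 window, which lies at the start of a class A Eph receptor gene, accessibility was 2.61 and 3.01 CPM at day 2, 6.63 and 8.23 CPM at day 3, and 1.76 and 1.09 CPM at day 6. Both day 3 libraries were above the other 8, and the region rose by 1.39 ± 0.37 (log2 change ± SE, adjusted p = 0.00682) and then fell by 2.30 ± 0.40 (adjusted p = 1.55e-05). The Epha8 window fell by 1.30 ± 0.36 from day 2 to day 3 (adjusted p = 0.00914), from 5.33 and 11.4 CPM to 2.80 and 4.04 CPM. The window of Unc5a, a receptor for repulsion by netrin, fell by 1.05 ± 0.27 from day 3 to day 6 (adjusted p = 0.00345), from 11.8 and 16.5 CPM to 7.11 and 6.29 CPM.

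Robo2 encodes a Slit receptor and has 3 reference starts. The region at the middle start passed the test from day 3 to day 6: it was at 1.61 and 1.44 CPM at day 3 and at 6.47 and 4.24 CPM at day 6, a log2 change of 1.81 ± 0.44 (adjusted p = 0.00188). The upstream start, at 13.8 and 11.8 CPM at day 3, and the downstream start, at 16.1 and 23.2 CPM, had changes of -0.13 ± 0.23 and 0.03 ± 0.20 (adjusted p = 0.762 and 0.954), and the differences between starts were not tested. At day 7 the region at the middle start was at 2.25 and 3.24 CPM, and with Gdf11 at 3.29 and 2.05 CPM. Its change from day 6 to day 7 was -1.01 ± 0.41 and did not pass the test (adjusted p = 0.292). The middle window has 5 CpG dinucleotides, the upstream window 9 and the downstream window 17. Searches on both strands were made for TTTATGG of Cdx and posterior Hox factors, ATGCAAAT of POU factors, CTTTGAT of Tcf and Lef, ACAATG of Sox factors, AGGTGTGA of T-box factors and TGANTCA of AP-1. The 6 printed windows held none of them, which says only that these letters are not in these windows. ACAATG was in 5 of the 54 windows (9.26%) and in 12.6% of all windows, and CTTTGAT was in 1 (1.85%) against 3.73%.

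Library totals ran from 7150334 to 12335735 counts, the first replicate was deeper in each group, and mitochondrial regions took 9.25 to 13.4% of counts. Regions near 6 epiblast markers summed to 449 to 486 CPM at day 2 and 188 to 193 CPM at day 7. Those near 10 markers of caudal epiblast and neuromesodermal progenitors summed to 433 to 470 CPM at day 2 and 698 to 710 CPM at day 3. In that step 6 of the 10 rose and 0 fell, beside 12.2% and 10.2% of all genes. From day 3 to day 6, 1 of the 10 rose and 7 fell, to a sum of 560 to 561 CPM, beside 9.47% and 10.7% of all genes. Regions near 7 neural progenitor markers summed to 690 to 697 CPM at day 2 and 674 to 701 CPM at day 3. Their sum was 834 to 884 CPM at day 6 and 1108 to 1186 CPM at day 7. All 7 of them fell with Gdf11, to 674 to 765 CPM, in a comparison in which 11.2% of all genes fell. Regions near 10 neuron markers summed to 684 to 694 CPM at day 2 and 575 to 613 CPM at day 3. Their sum was 580 to 586 CPM at day 6, 580 CPM in both day 7 libraries and 510 to 576 CPM with Gdf11. Regions near 10 fibroblast markers summed to 287 to 314 CPM at day 2, 305 to 308 CPM at day 3 and 323 to 329 CPM at day 6. Their sum was 354 to 385 CPM at day 7 and 354 to 388 CPM with Gdf11. None of these marker genes was at 0 in any library.

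From day 2 to day 3, regions of 14 guidance genes rose and those of 9 fell. The secreted repellent Sema3a changed most, by 2.25-fold, and 5 of the 9 class A Eph receptors (Epha2 only with its regions outside the span) rose with the semaphorin co-receptor Nrp2 and the Slit receptors Robo1 and Robo2. The 9 that fell included Efnb2, a membrane-bound ephrin, and Sema3e. The 23 called genes were 41.1% of the 56, beside 22.5% of the 19044 genes tested. By direction, 25% rose and 16.1% fell, beside 12.2% and 10.2% of all genes. The guidance genes had a median of 24.5 regions and a span of 87.0 kb, against 6 regions and 17.1 kb over all genes, and the part of size in this share was not tested. By single region, 151 of 1294 rose and 63 fell, together 16.5% beside 13.1% of all regions tested. The rises were 11.7% beside 8.76% and the falls 4.87% beside 4.31%. The median gene change was 0.04 over the 56 genes and 0.00 over all genes. By edgeR's quasi-likelihood test with Benjamini-Hochberg adjustment, the 12 strongest of the 14 rises by p were Sema3a (log2 change 1.17), Nrp2 (0.58), Epha3 (0.50), Robo1 (0.45), Epha5 (0.49), Epha6 (0.45), Dcc (0.45), Robo2 (0.37), Epha2 (0.43), Epha1 (0.43), Sema3d (0.33) and Ephb6 (0.39). The 9 falls were Efnb2 (-0.71), Epha8 (-1.04), Sema3e (-0.47), Epha10 (-0.46), Sema3f (-0.48), Ephb1 (-0.29), Plxna4 (-0.44), Efna2 (-0.47) and Ephb2 (-0.31). Without the second day 2 library 14 genes were called instead of 23, and Dcc (adjusted p = 0.125) and Robo2 (0.114) were among those lost.

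From day 3 to day 6 the balance went further to rises, with 20 genes higher and 6 lower. All 3 Slits and both neuropilins rose, as did Ntn1, its receptor genes Dcc and Unc5c, 3 class 3 semaphorins and 3 class A plexins. The receptor Unc5b and the membrane-anchored repellent Rgma were the strongest of the 6 falls by p. The 26 called genes were 46.4% of the 56, beside 20.2% of all genes tested, and by direction 35.7% rose and 10.7% fell, beside 9.47% and 10.7%. By single region, 184 rose and 63 fell, together 19.1% beside 15.1%. The rises were 14.2% beside 9.12% and the falls 4.87% beside 5.98%. The median gene change was 0.13 over the 56 genes and -0.02 over all genes. The 12 strongest rises were Slit1 (log2 change 1.04), Plxna2 (0.68), Dcc (0.65), Sema3c (0.60), Robo1 (0.51), Epha5 (0.51), Sema3d (0.53), Sema3a (0.44), Unc5c (0.44), Slit2 (0.43), Epha8 (0.84) and Ntn1 (0.41). The other 8 rises, of 0.29 to 0.42, were those of Epha4, Epha3, Slit3, Nrp1, Robo2, Nrp2, Plxna1 and Plxna4. The 6 falls were Unc5b (-0.64), Rgma (-0.47), Epha2 (-0.47), Sema3e (-0.35), Epha6 (-0.36) and Efna1 (-0.51). With only the regions inside the gene span, Epha2 was at 0.05 (adjusted p = 0.872).

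Between day 6 and day 7 without Gdf11, 10 guidance genes rose and 0 fell by edgeR. At an unadjusted p under 0.05, 20 were higher and 2 lower, and DESeq2 called 11 higher and 0 lower. The rises were led by the diffusible ligands Slit1 (log2 change 0.64) and Ntn1 (0.61) and by Dcc (0.53), and included Epha4 (0.44), Rgma (0.43), Slit3 (0.37), Ephb2 (0.46), Sema3a (0.36), Sema3d (0.41) and Unc5c (0.32). The 10 genes were 17.9% of the 56, beside 4.12% of all genes tested, of which 3.48% rose and 0.641% fell. By single region, 28 rose and 4 fell, together 2.47% beside 1.18%. The rises were 2.16% beside 0.971% and the falls 0.309% beside 0.207%. The median gene change was 0.12, and 0.05 over all genes. Scaled by library size alone the medians were 0.02 and -0.05, and 6 genes were called higher and 1 lower, with Sema3a, Sema3d, Slit3 and Unc5c no longer called. Only Slit1, Ntn1 and Dcc were still called without the second day 6 library or without the second day 7 library, in both of which the count was 3.

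With Gdf11 for the last 24 h, 15 guidance genes were lower than at day 7 and 1, Robo4, was higher. The fall was greatest by p at Slit1, Epha4, Rgma and Ntn1, and extended to Plxna2, Dcc, Nrp2 and the ephrin B ligands Efnb1 and Efnb2. The 16 called genes were 28.6% of the 56, beside 13.2% of all genes tested, and 26.8% fell and 1.79% rose, beside 11.2% and 2.00%. By single region, 12 rose and 68 fell, together 6.18% beside 3.70%. The rises were 0.927% beside 1.07% and the falls 5.26% beside 2.63%. The log2 changes of the 12 strongest falls were -0.68 (Slit1), -0.63 (Epha4), -0.63 (Rgma), -0.59 (Ntn1), -0.52 (Plxna2), -0.54 (Dcc), -0.39 (Nrp2), -0.41 (Sema3d), -0.43 (Ephb2), -0.33 (Efnb2), -0.34 (Sema3a) and -0.35 (Efnb1). Epha5 (-0.31), Epha8 (-0.54) and Ephb1 (-0.27) made up the 15. A region outside the span, chr4:136961880-136962373, made up 96.8% of the fall of Epha8. With regions inside the span alone Epha8 was at -0.01 (adjusted p = 0.992), and its call was also lost with library size, with DESeq2, and without either day 7 library or the first Gdf11 library. The falls of Efnb1 and Ephb1 were also lost with regions inside the span alone. That of Efnb1 was lost as well with only regions within 10 kb of the span. Its log2 change was -0.47 to -0.19 over the alternatives and omissions. The median change was -0.21 over the 56 genes and -0.10 over all genes. Scaled by library size alone, these medians were -0.06 and 0.06, so that the guidance genes lay 0.11 below all genes with TMM and 0.12 below with library size. With library size alone 9 genes were called, 3 higher and 6 lower, and Slit1, Epha4, Rgma, Ntn1, Plxna2 and Dcc were lower under both scalings. Without the second day 7 library 10 genes were called, and without the first Gdf11 library 8 were. All 7 neural progenitor markers fell in the same comparison, with sums given above. Of the 10 markers of caudal epiblast and neuromesodermal progenitors 5 fell and 0 rose (median change -0.45), and their sum was 610 to 678 CPM at day 7 and 453 to 465 CPM with Gdf11. The part of either list in the fall of guidance genes was not tested. This comparison and that of day 7 with day 6 share the 2 day 7 libraries.

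**Figure D1:**
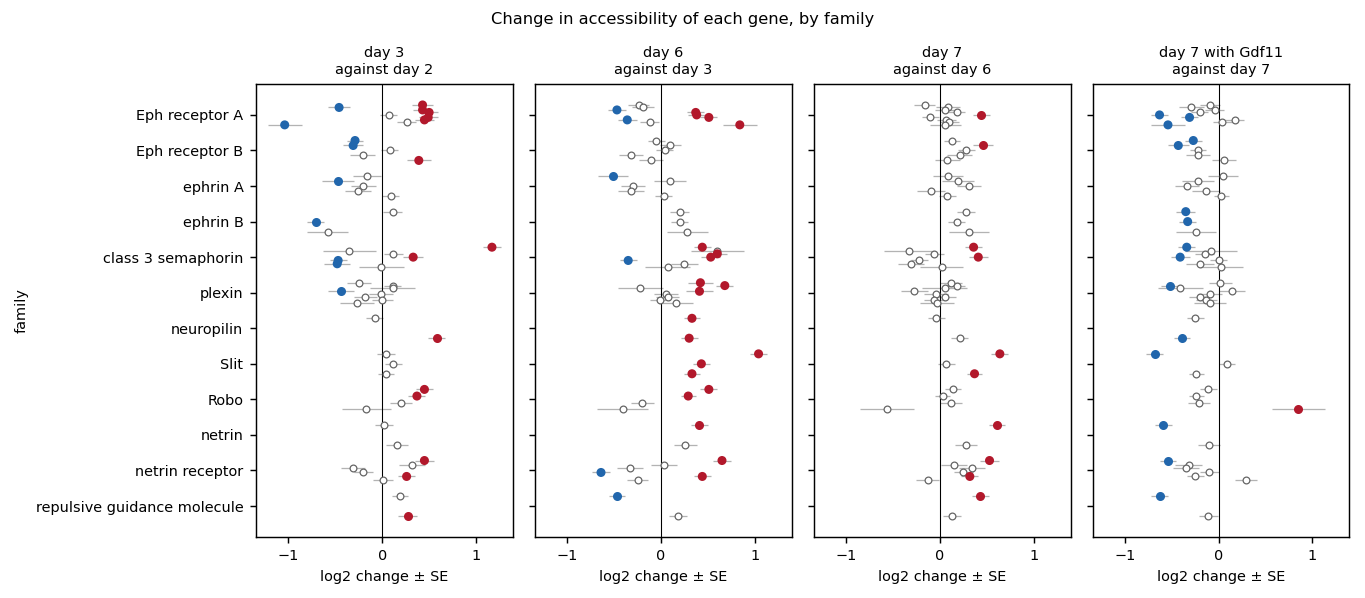
Log2 change in accessibility (horizontal, ± SE) of each of the 56 genes, by family (vertical), in the 4 comparisons. Filled points passed the test (red higher, blue lower) and open points did not. The panel for day 7 with Gdf11 holds 15 blue points and 1 red point, and the panel for day 7 against day 6 holds 10 red points.

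Among the secreted repellents, Slit1 (chr19:41597824-41747275, 41 regions) was at 67.7 and 65.2 CPM at day 2 and at 71.9 and 64.8 CPM at day 3. It was at 144 and 138 CPM at day 6, at 213 and 228 CPM at day 7, and at 134 and 142 CPM at day 7 with Gdf11. The day 2 and day 3 libraries overlapped, both day 7 libraries were above all others, and the Gdf11 libraries overlapped those of day 6. The rise to day 6 was 2.06-fold (log2 change 1.04 ± 0.09, adjusted p = 6.17e-10), that to day 7 was 1.56-fold (0.64 ± 0.09, adjusted p = 2.04e-05), and the value with Gdf11 was 1.60-fold lower (-0.68 ± 0.09, adjusted p = 2.06e-06). Slit2 rose only to day 6, by 0.43 ± 0.09 (adjusted p = 0.000815), and with Gdf11 its change was 0.09 ± 0.09 (adjusted p = 0.551). Slit3 was at 202 ± 4.01 CPM at day 6, 261 ± 3.19 CPM at day 7 and 221 CPM on average with Gdf11 (SD, n = 2). The unlike changes of Slit1 and Slit2 under Gdf11 were not tested against each other.

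Of the Slit receptors, Robo1 (chr16:72027518-73047491, 161 regions) was at 225 and 197 CPM at day 2, 306 and 269 CPM at day 3, and 422 and 398 CPM at day 6. It then stayed between 398 and 462 CPM in the 6 libraries from day 6 on, with a change under Gdf11 that did not pass the test. Robo2 followed from a mean of 218 CPM at day 2 to 283 CPM at day 3 and 346 CPM at day 6. Robo3, which modulates crossing of the midline, was not called in any comparison and held group means of 49.9 to 61.8 CPM. Robo4, known from blood vessels, had 3 regions and as few as 25 counts in a library. It was at 5.67 and 3.68 CPM at day 7 and at 7.68 and 9.80 CPM with Gdf11, a log2 change of 0.85 ± 0.28 (adjusted p = 0.0393). That call was lost without the second day 7 library (adjusted p = 0.292), without the first Gdf11 library (0.0729), without the second (0.206), and with regions inside the span alone (0.0558). Regions near 10 endothelial markers summed to 306 to 320 CPM at day 7 and 302 to 312 CPM with Gdf11. In that list Emcn rose, Kdr and Erg fell, and the median change was 0.24, beside -0.10 over all genes. Its part in the Robo4 change was not tested.

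Netrin-1, the product of Ntn1, is the classical attractant of commissural axons. Ntn1 (chr11:68209364-68386826, 41 regions) was at 83.6 and 86.7 CPM at day 2 and at 86.0 CPM in both day 3 libraries. It was at 110 and 119 CPM at day 6, 166 and 184 CPM at day 7, and 115 and 117 CPM with Gdf11. Both day 7 libraries stood above the other 8, and the Gdf11 libraries lay within the range of day 6. The change was 0.41 ± 0.09 to day 6 (adjusted p = 0.00149), 0.61 ± 0.09 to day 7 (adjusted p = 4.32e-05) and -0.59 ± 0.09 with Gdf11 (adjusted p = 2.49e-05). A single region, chr11:68273897-68274883, made up 82.6% of the difference between day 6 and day 3. Ntn4 did not pass in any comparison, and its group means were 46.5, 52.5, 62.0, 76.0 and 70.5 CPM from day 2 to Gdf11.

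Dcc, the receptor for attraction by netrin-1, was called in all 4 comparisons, as were Sema3a and Sema3d. Its 74 regions (chr18:71253613-72351228) held 90.6 and 72.4 CPM at day 2, 116 and 108 CPM at day 3, and 184 and 167 CPM at day 6. They held 244 and 262 CPM at day 7 and 164 and 184 CPM with Gdf11. No 2 successive days overlapped, and the Gdf11 libraries spanned the range of day 6. Each step up passed the test, by 0.45 ± 0.10, 0.65 ± 0.10 and 0.53 ± 0.10 (adjusted p = 0.00154, 6.76e-06 and 0.000552), and with Gdf11 the change was -0.54 ± 0.09 (adjusted p = 0.00017).

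Of the 4 Unc5 receptors for repulsion, Unc5b fell and Unc5c rose between day 3 and day 6. Unc5b (chr10:60762594-60831581, 28 regions) was at 110 and 122 CPM at day 2, 95.0 and 108 CPM at day 3, and 62.6 and 67.4 CPM at day 6. It was at 74.7 and 80.3 CPM at day 7 and 71.7 and 72.4 CPM with Gdf11. Its libraries from day 6 on were all below those of day 3, and the change from day 3 to day 6 was -0.64 ± 0.10 (adjusted p = 1.65e-05). Unc5c went the other way in the same step, from 143 to 194 CPM on average (0.44 ± 0.09, adjusted p = 0.000507). Unc5a and Unc5d were not called at gene level in any comparison, although the promoter window of Unc5a fell.

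The repulsive guidance molecule Rgma (chr7:73375520-73419899, 24 regions) was at 180 and 179 CPM at day 2, 202 and 206 CPM at day 3, and 156 and 138 CPM at day 6. It was at 186 and 212 CPM at day 7 and 122 and 133 CPM with Gdf11. It was thus lower at day 6 than on the days around it, and the Gdf11 libraries were the lowest of the 10. The changes were -0.47 ± 0.09 to day 6 (adjusted p = 0.00022), 0.43 ± 0.09 to day 7 (adjusted p = 0.00319) and -0.63 ± 0.09 with Gdf11 (adjusted p = 8.55e-06). Rgmb passed only from day 2 to day 3 (0.27 ± 0.10, adjusted p = 0.0466), and did not do so without any one of the 4 libraries (adjusted p = 0.114 to 0.197). Neo1, the gene of their receptor, was not called in any comparison.

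**Figure D2:**
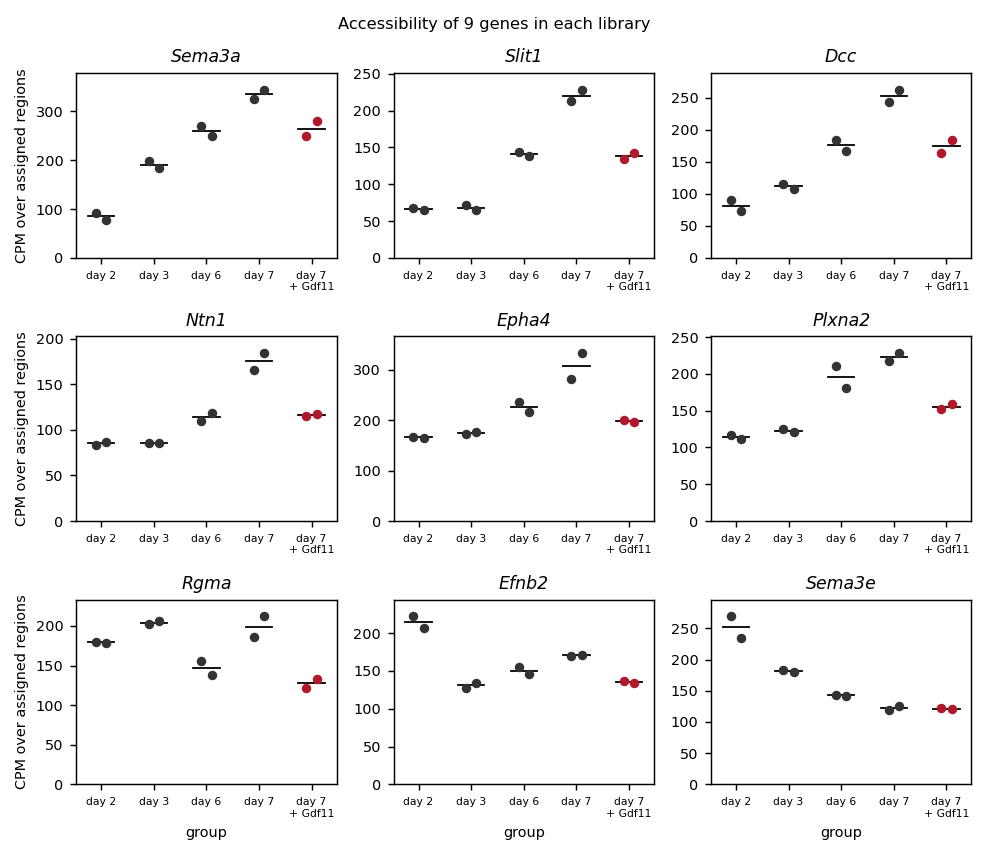
Accessibility in CPM (vertical, from 0) of 9 genes in the 5 groups (horizontal). Points are the 2 libraries of a group, red for Gdf11, and bars are their mean. Slit1, Dcc, Ntn1 and Epha4 are highest in both day 7 libraries, and Sema3e is highest at day 2.

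Class 3 semaphorins are the secreted ligands of the neuropilins. Sema3a (chr5:13124822-13603485, 60 regions) was at 91.4 and 78.6 CPM at day 2, 198 and 184 CPM at day 3, and 271 and 249 CPM at day 6. It was at 326 and 344 CPM at day 7 and 249 and 281 CPM with Gdf11. The day 2 libraries were below all 8 others, and the Gdf11 libraries overlapped those of day 6. The first step was 1.17 ± 0.10 (adjusted p = 1.76e-11), followed by 0.44 ± 0.09 and 0.36 ± 0.09 (adjusted p = 0.000433 and 0.0123), and the change with Gdf11 was -0.34 ± 0.09 (adjusted p = 0.00941). With library size alone the change with Gdf11 was lost (adjusted p = 0.201). The rise to day 7 was also lost in that setting, without the second day 6 library and without the second day 7 library, at an adjusted p of up to 0.151.

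Sema3d had means of 50.8, 64.1, 91.8 and 122 CPM at day 2, day 3, day 6 and day 7, and of 92.1 CPM with Gdf11. Its rise to day 3 was lost with DESeq2 and with regions inside the span alone. Its rise to day 7 and its fall with Gdf11 were lost with library size alone. Over the alternatives and omissions the log2 changes in these 3 comparisons were 0.18 to 0.44, 0.31 to 0.49 and -0.50 to -0.25. Sema3c rose once, from 95.0 ± 3.20 to 144 ± 9.89 CPM between day 3 and day 6 (SD, n = 2; adjusted p = 2.08e-05). Sema3e, a semaphorin that binds Plxnd1 without a neuropilin, took the opposite course. It was at 269 and 235 CPM at day 2, 184 and 180 CPM at day 3, 143 and 142 CPM at day 6, and 119 and 125 CPM at day 7. Its falls to day 3 (-0.47 ± 0.09, adjusted p = 0.000136) and to day 6 (-0.35 ± 0.09, adjusted p = 0.00372) passed the test. With Gdf11 it was at 123 and 120 CPM, within the range of day 7. Sema3b and Sema3g, with 3 regions each, were not called in any comparison.

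The semaphorin receptors were led by Nrp2 and Plxna2. Nrp2 (chr1:62703317-62818692, 50 regions) was at 118 and 102 CPM at day 2, 164 and 166 CPM at day 3, and 209 and 196 CPM at day 6. It was at 227 and 242 CPM at day 7 and 174 and 184 CPM with Gdf11. The groups of the untreated course did not overlap, and the first step was 0.58 ± 0.09 (adjusted p = 1.3e-05). The step to day 6 was 0.30 ± 0.09 (adjusted p = 0.0149) and was lost without either day 3 library or without the first day 6 library, at an adjusted p of up to 0.139. The change with Gdf11 was -0.39 ± 0.09 (adjusted p = 0.0027), which with library size alone had an adjusted p of 0.0872. Nrp1, the receptor of Sema3a, was called only from day 3 to day 6 (0.33 ± 0.09, adjusted p = 0.00819).

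Plxna2 (chr1:194619791-194816869, 55 regions) was at 117 and 112 CPM at day 2, 125 and 121 CPM at day 3, and 211 and 181 CPM at day 6. It was at 217 and 228 CPM at day 7 and 152 and 159 CPM with Gdf11. The Gdf11 libraries were below those of day 6 and above those of day 3. The rise to day 6 was 0.68 ± 0.09 (adjusted p = 9.35e-07), and the fall with Gdf11 was -0.52 ± 0.09 (adjusted p = 0.000121). The 5 plexins Plxna3, Plxnb1, Plxnb2, Plxnc1 and Plxnd1 were not called in any comparison, and Plxnd1 had a change of -0.27 ± 0.18 (adjusted p = 0.282) in the step in which Sema3e fell.

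Among the ephrins, Efnb2 (chr8:8617235-8661242, 25 regions) was at 222 and 207 CPM at day 2 and at 128 and 134 CPM at day 3. It was at 155 and 146 CPM at day 6, 170 and 171 CPM at day 7, and 137 and 134 CPM with Gdf11. It was highest in the 2 day 2 libraries, and the first step was -0.71 ± 0.09 (adjusted p = 1.53e-07). The fall with Gdf11 was -0.33 ± 0.09 (adjusted p = 0.00883), and its adjusted p was 0.225 with library size alone. Of the 5 ephrin A genes, Efna2 fell to day 3 and Efna1 to day 6, and none rose in any comparison. The Efna2 fall had an adjusted p of 0.114 with only the day 2 and day 3 libraries. It was also lost with regions inside the span alone, and without either day 2 library or the first day 3 library. The Efna1 fall was lost without the second day 3 library or either day 6 library. Over the alternatives and omissions the log2 changes were -0.63 to -0.34 for Efna2 and -0.60 to -0.43 for Efna1. Efna3, Efna4, Efna5 and Efnb3 were not called in any comparison.

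Of the Eph receptors, Epha4, which binds ephrins of both classes, was at 167 and 165 CPM at day 2, 172 and 177 CPM at day 3, and 237 and 216 CPM at day 6. It was at 282 and 333 CPM at day 7 and 200 and 197 CPM with Gdf11 (chr1:77367182-77515107, 44 regions). Its day 7 libraries were above all others, and its Gdf11 libraries lay between day 3 and day 6. The changes were 0.38 ± 0.09 to day 6 (adjusted p = 0.00213), 0.44 ± 0.09 to day 7 (adjusted p = 0.00185) and -0.63 ± 0.09 with Gdf11 (adjusted p = 5.37e-06). The rise to day 7 had an adjusted p of 0.0604 without the second day 6 library and of 0.107 without the second day 7 library. Epha3 and Epha5 rose in both earlier steps, Epha5 from 58.9 ± 1.16 to 82.6 ± 2.20 and then 118 ± 0.452 CPM (SD, n = 2).

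Epha8 (chr4:136929419-136956859, 12 regions) encodes a class A receptor and was at 23.0 and 29.9 CPM at day 2, 13.8 and 11.4 CPM at day 3, 20.5 and 25.6 CPM at day 6, 24.7 and 22.7 CPM at day 7, and 15.3 and 17.5 CPM with Gdf11. Its day 3 libraries were the lowest of the 10, and the changes were -1.04 ± 0.18 to day 3 (adjusted p = 7.41e-05) and 0.84 ± 0.18 to day 6 (adjusted p = 0.00101). The second was lost with regions inside the span alone (adjusted p = 0.144). Epha2 and Epha6 rose to day 3 and fell to day 6, with Epha2 at 81.8, 110 and 79.5 CPM and Epha6 at 87.3, 119 and 92.8 CPM on days 2, 3 and 6. With regions inside the span alone, neither change of Epha2 was called (adjusted p = 0.995 and 0.872). No class B Eph receptor was called from day 3 to day 6, and Epha7, Ephb3 and Ephb4 were not called in any comparison.

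**Figure D3:**
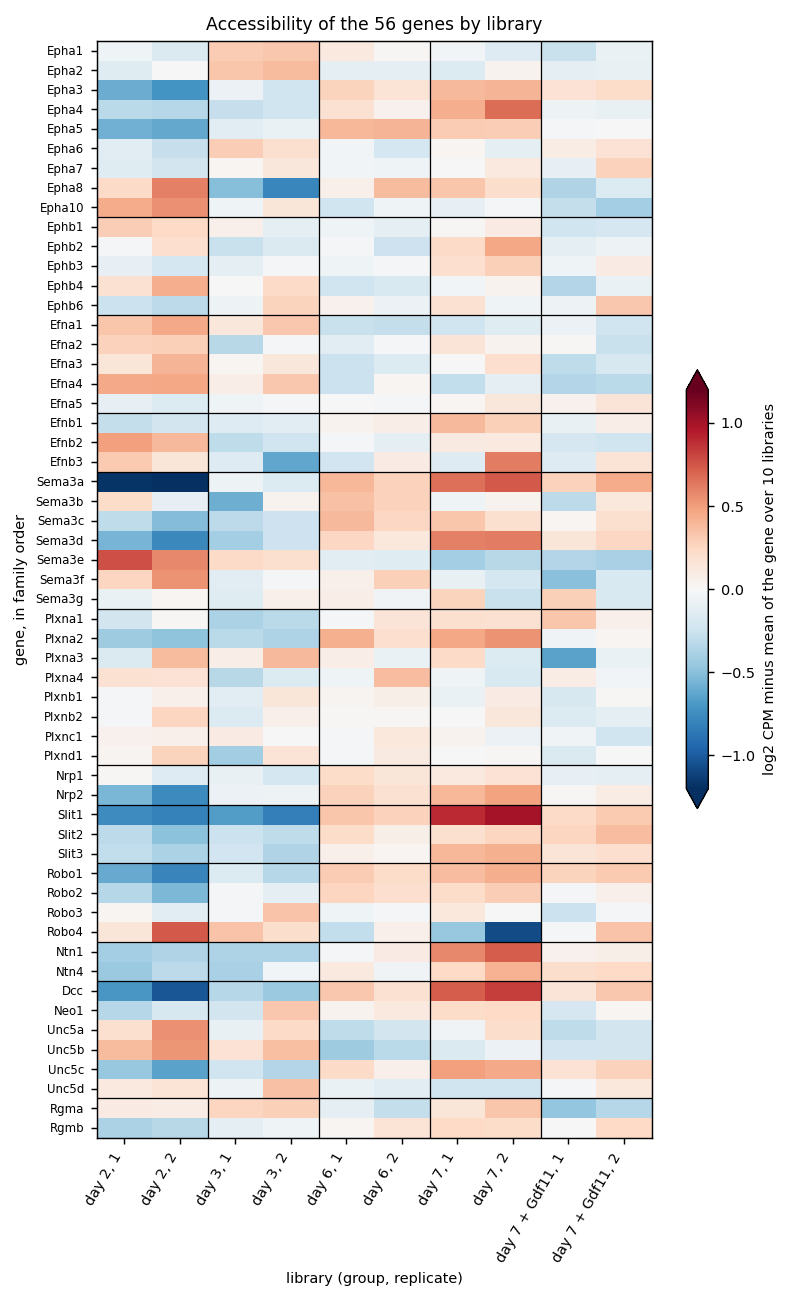
Log2 CPM of each of the 56 genes (rows, by family) in each of the 10 libraries (columns), minus the mean of the gene over the 10 libraries. Red is above and blue below that mean, and the scale stops at ±1.2. Slit1, Dcc and Sema3a go from blue at day 2 to red at day 7, and Sema3e from red to blue.

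Across the 4 comparisons 3 genes were called in all 4, 9 in 3, 11 in 2, 14 in 1 and 19 in 0. This count was not made over all genes, whose shares called in each comparison are given above, so it has no background to be read against. The 19 were Efna3, Efna4, Efna5, Efnb3, Epha7, Ephb3, Ephb4, Neo1, Ntn4, Plxna3, Plxnb1, Plxnb2, Plxnc1, Plxnd1, Robo3, Sema3b, Sema3g, Unc5a and Unc5d. Of the 75 calls, 31 were kept in each alternative setting and each omission of 1 library that was run, and the others were lost in at least 1. These were Efnb2, Epha3, Epha5, Epha6, Epha8, Nrp2, Robo1, Sema3a and Sema3e to day 3, and Slit1, Ntn1 and Dcc to day 7. They were Dcc, Epha5, Ntn1, Plxna2, Rgma, Robo1, Sema3a, Sema3c, Sema3d, Slit1, Slit2, Unc5b and Unc5c to day 6. With Gdf11 they were Dcc, Epha4, Ntn1, Plxna2, Rgma and Slit1.

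A few strong regions carried some of these changes. At Sema3a the region chr5:13144727-13145362 rose from 2.30 and 1.05 CPM at day 2 to 37.8 and 40.8 CPM at day 3, 22.5-fold (adjusted p = 1.54e-21). A second one at chr5:13197606-13198303 rose 12.9-fold in that step (adjusted p = 4.77e-21) and stood at 71.2 and 77.2 CPM at day 7 and 34.7 and 33.2 CPM with Gdf11. Both lie inside the Sema3a span, upstream of its reference start, whose window (chr5:13396534-13396833) held no accessible region. At Ntn1 the region chr11:68273897-68274883 had group means of 1.18, 3.62, 27.2, 68.0 and 35.2 CPM from day 2 to Gdf11. It made up 23.6 of the 28.6 CPM by which Ntn1 differed between day 6 and day 3. Without it the log2 ratio of those means was 0.08 instead of 0.41. Between day 7 and day 6 it made up 40.8 of 60.3 CPM, and the ratio without it was 0.29 instead of 0.61. At Unc5c the region chr3:141818901-141819970 made up 85.6% of the rise to day 7, and the ratio without it was 0.07 instead of 0.32. At Slit1, by contrast, the leading region made up 22.5 of 79.3 CPM in that step, and the ratio was 0.56 without it and 0.64 with it.

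At Epha4 the region chr1:77502403-77503400 had group means of 13.4, 20.4, 55.2, 95.2 and 38.5 CPM, and fell with Gdf11 by 1.30 ± 0.15 (adjusted p = 2.96e-08). It made up 51.8% of the fall of Epha4. A small Epha4 region at chr1:77473611-77473790 had 0 counts in both day 7 libraries, 24 counts over both day 6 libraries and 35 over both Gdf11 libraries. Taking 3 counts over the 2 libraries as the floor, it was at least 7.22-fold lower at day 7 than at day 6, and at least 9.88-fold higher with Gdf11 than at day 7. At Plxna2 the region chr1:194663025-194663485 had group means of 4.52, 5.18, 20.7, 31.3 and 10.1 CPM and fell 3.07-fold with Gdf11 (adjusted p = 4.48e-07).

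Regions of the same gene also changed in opposite directions. At Efnb2 the region chr8:8609130-8609641 fell from 47.5 and 41.7 CPM at day 2 to 12.9 and 12.7 CPM at day 3 (-1.80 ± 0.20, adjusted p = 2.18e-10) and was at 6.93 and 7.81 CPM at day 7. The region chr8:8653914-8654344, inside the gene, had means of 2.75 CPM at day 3, 13.1 CPM at day 6 and 20.6 CPM at day 7. The first region was thus the higher of the 2 at day 3 and the second at day 7. In the step to day 3, 2 regions of Efnb2 were called higher and 5 lower. At Robo2, chr16:74397115-74397807 had means of 60.2 CPM at day 7 and 24.2 CPM with Gdf11 (adjusted p = 5.05e-07), while chr16:75104924-75105223 was at 1.71 and 1.18 CPM and at 7.09 and 8.72 CPM (5.28-fold, adjusted p = 0.000494). A further one, chr16:74526556-74526951, also rose with Gdf11, 2.21-fold (adjusted p = 0.000816).

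**Figure D4:**
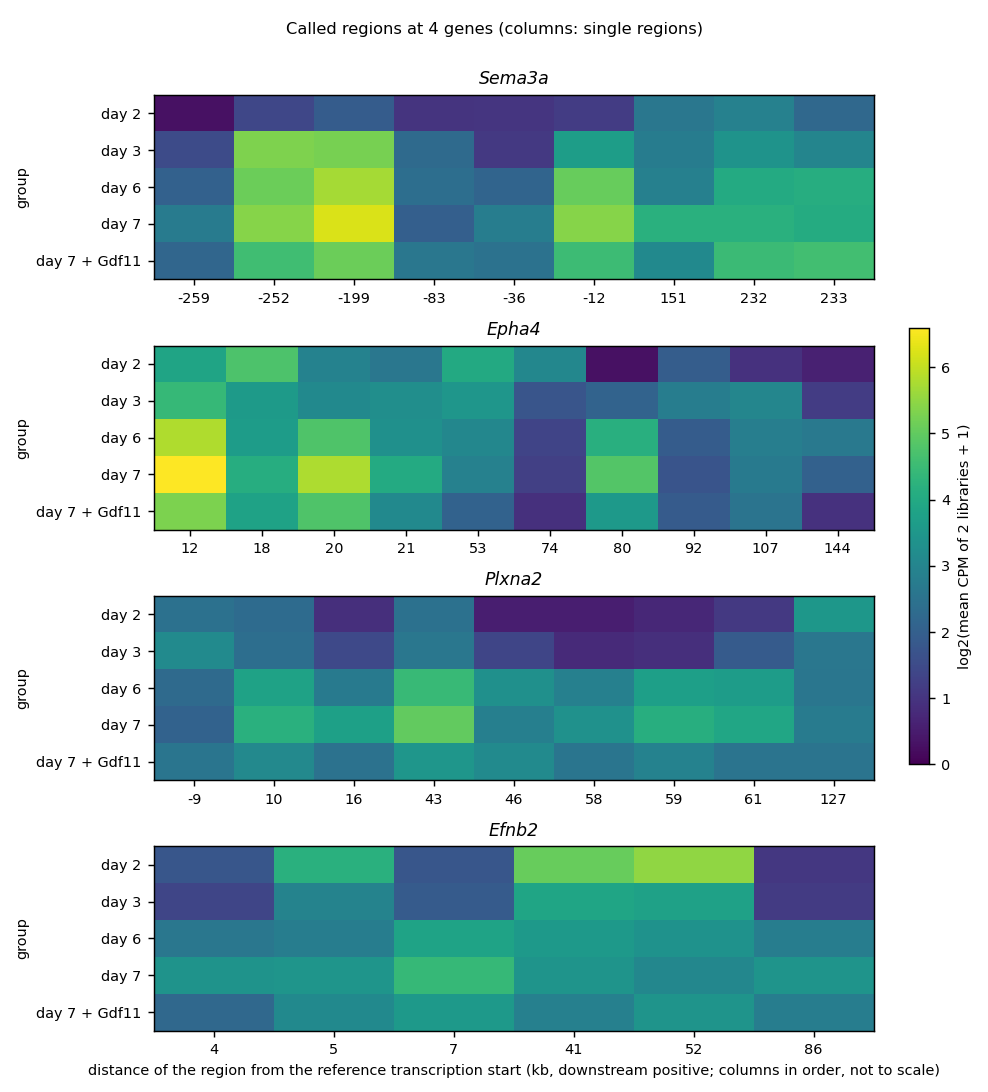
Mean accessibility, as log2(CPM + 1) over 2 libraries (colour), of single regions (columns) in the 5 groups (rows) at Sema3a, Epha4, Plxna2 and Efnb2, for regions called in at least 1 comparison with a group mean of 5 CPM or more. Columns are labelled by the distance in kb from the reference start. At Efnb2 the columns at 41 and 52 kb are brightest at day 2 and the column at 7 kb at day 7.

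The other regions named for a small p were spread over several genes. The Epha5 region chr5:84412558-84413262 rose 21.4-fold from day 2 to day 3 (adjusted p = 2.98e-16), from 0.941 and 0.261 CPM to 14.9 and 12.6 CPM. The Robo1 region chr16:72787936-72788566 rose 4.23-fold from day 3 to day 6 (adjusted p = 5.1e-14). Beyond the end of Ntn4, chr10:93751077-93751721 went from 0.510 and 0.866 CPM at day 3 to 13.3 and 7.93 CPM at day 6, 16.5-fold (adjusted p = 1.99e-12), although Ntn4 as a whole was not called. From day 6 to day 7, chr16:63500794-63501839 near Epha3 rose 3.01-fold (adjusted p = 1.34e-06) and a region of Dcc at chr18:72048984-72049713 rose 3.65-fold (adjusted p = 1.05e-05). After the Efnb2 region, the falls to day 3 with the smallest p were at chr5:13982307-13982984 upstream of Sema3e (2.69-fold) and chr9:102211389-102212085 in Ephb1 (3.22-fold). Among falls to day 6 were chr4:141295805-141296188 upstream of Epha2 (3.40-fold) and chr3:141784454-141784754 in Unc5c (8.69-fold). The Unc5c region went from 4.42 and 5.48 CPM to 0.559 and 0.547 CPM, while Unc5c as a whole rose. In the step to day 7, chr5:14081150-14081695 in Sema3e and chr5:17601753-17602086 in Sema3c fell 2.47-fold and 2.93-fold (adjusted p = 0.0304 and 0.0356).

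By position, called regions of the guidance genes were mostly away from starts. Inside gene spans, but outside windows at a gene start or end, 17.1% of their tested regions were called from day 2 to day 3, beside 13.4% over all genes. The shares were 21.3% beside 15.7% from day 3 to day 6, 2.85% beside 1.31% to day 7, and 7.57% beside 3.99% with Gdf11. In promoter windows of any gene, 68 of their regions were tested, and the shares were 10.3% beside 9.34%, 8.82% beside 9.75%, 0 beside 0.462% and 2.94% beside 2.83%. The differences between guidance genes and all genes were not tested. Counting windows of the guidance genes themselves, 51 regions of 45 genes were tested. Those of Epha6, Robo1 and Epha5 rose and those of Epha8 and Sema3e fell to day 3, that of Robo2 rose and those of Unc5a, Epha6 and Epha1 fell to day 6, and 0 were called in the later 2 comparisons.

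**Figure D5:**
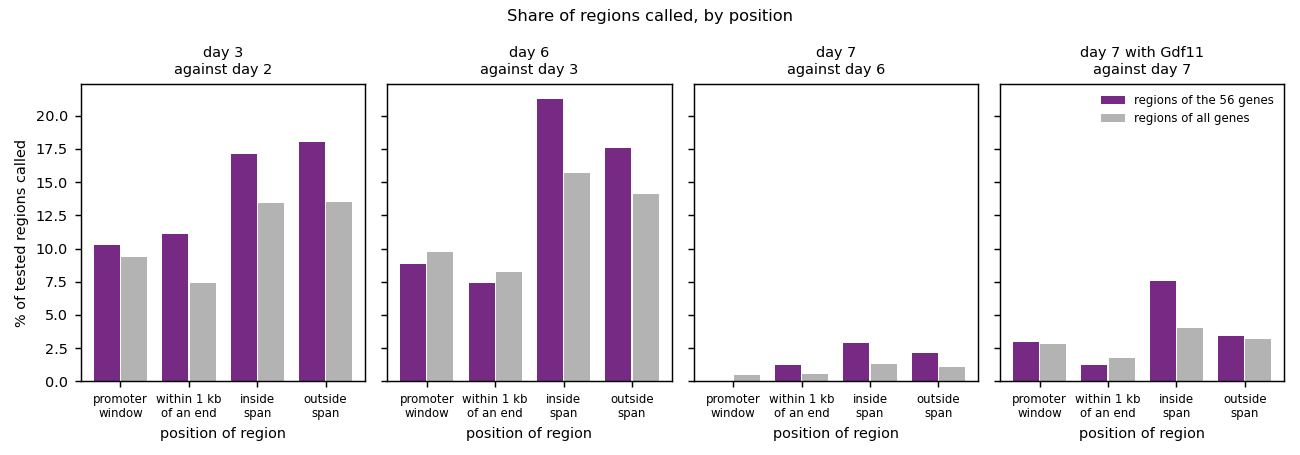
Percent of tested regions that were called (vertical, from 0), by position of the region (horizontal), for the 56 genes (purple) and for all genes (grey) in the 4 comparisons. The purple bars for regions inside spans are above the grey ones in each panel, at 21.3% beside 15.7% from day 3 to day 6, while those in promoter windows are close to the grey ones.

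Over the 414 regions of the guidance genes called in at least 1 comparison, the highest group mean was at day 7 for 128, at day 2 for 76, at day 6 for 76, at day 3 for 74 and at day 7 with Gdf11 for 60. Over all 1294 tested regions of these genes the numbers were 338, 300, 205, 225 and 226 in the same order. This sorts regions by the values that called them and has no test. The same sorting was not made over the regions of all genes, so these numbers have no background from the whole series.

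Other parts of the guidance pathway were counted in 3 further lists. Of 13 semaphorins of classes 4 to 7, which are mostly membrane-bound, 1 rose and 5 fell to day 3, 2 rose and 1 fell to day 6, 1 rose to day 7, and 1 fell with Gdf11. Of 25 other guidance ligands and receptors, 6 rose and 4 fell to day 3, 8 rose and 2 fell to day 6, 6 rose to day 7, and 8 fell with Gdf11. Those that fell with Gdf11 were Ntn5, Flrt3, Cntn1, Ptch1, Boc, Cdon, Met and Lrig2. Ptch1, Boc and Cdon are receptors of hedgehog ligands. These 3, and also Ntn5 and Lrig2, had risen to day 6 and to day 7. Of 36 intracellular transducers, 4 rose and 3 fell to day 3, 8 rose and 3 fell to day 6, 2 rose to day 7, and 4 fell with Gdf11. Of all genes tested, 12.2% rose and 10.2% fell to day 3, and 9.47% rose and 10.7% fell to day 6. To day 7, 3.48% rose and 0.641% fell, and with Gdf11 2.00% rose and 11.2% fell. The counts of the 3 lists were not tested against these shares. The median changes with Gdf11 were -0.18, -0.24 and -0.17 in the 3 lists, beside -0.10 over all genes.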

How the data were processed

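ATAC-seq libraries, 10 in all, were made from cultured cells. Per the submitters' processing notes, the tools included MACS2 2.1.1.20160309, HISAT2 2.1.0 and HOMER 4.10, next to bedtools and SAMtools, with build mm10. Their roles and settings are not given in the sources used here. The authors deposited raw counts per region for each library, and peak lists with a −log10 q-value per peak, which was used only to describe regions. The merged regions of the 10 peak lists, with chromosomes in character order, were matched by row to the counts: no peak of a library had 0 counts in that library. Motif tables were not used.

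Regions were assigned to the nearest RefSeq protein-coding span within 50 kb (overlaps to the nearer end), and counts were summed per gene. Genes and regions with low counts were removed (filterByExpr), leaving 19044 genes and 174851 regions. One edgeR 4.0.16 quasi-likelihood fit (R 4.3.3) by group over the 10 libraries, with TMM factors from the region table, gave 2-sided tests in 4 comparisons. P-values were adjusted by Benjamini-Hochberg over everything tested in a comparison, with a threshold of 0.05. CPM uses the TMM-scaled library size. The fit was tested on simulated counts. Named are the genes called in a comparison, up to 12 per direction by p, with values by library for the 4 of smallest p, and up to 3 regions per direction. The 8 further rises to day 6, the other falls with Gdf11, further values by library, and the leading or opposed regions were chosen after their values were seen. The genes and lists were chosen with earlier results of these data known. Alternatives were library size scaling, no filter, a replicate block, only the groups compared, DESeq2 1.42.0, other assignments of regions, and leaving out each library.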

Additional observations from a re-analysis of the deposited data

How the results depend on the processing

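The number of guidance genes called was within 1.5 times of the reported one in most settings. For day 7 with Gdf11 it was 9 with library size scaling (3 higher, 6 lower, against 1 and 15) and 25 with the replicate block (2 higher, 23 lower). The labels do not pair the replicate numbers. Deviations of same-numbered libraries from their group means correlated by 0.01 to 0.19 between groups, above 0.1 in 4 of 10 pairs of groups. The block moved no other count of genes or regions by over 1.5 times and ended none of the 75 gene calls. With DESeq2, 130 regions instead of 214 were called from day 2 to day 3, and 52 instead of 80 with Gdf11. Leaving out 1 library gave 14 to 20 genes from day 2 to day 3, 18 to 25 from day 3 to day 6, 3 to 10 from day 6 to day 7, and 8 to 20 with Gdf11. The regions were then 133 to 150, 159 to 188, 10 to 21 and 40 to 59. A group left with 1 library was assumed to vary like the others. The cause of these shifts was not tested. With library size scaling, 18 regions were higher and 42 lower with Gdf11, against 12 and 68. Of the 75 gene calls 1 reversed: Epha2 from day 3 to day 6, at 0.05 with regions inside the span alone. The 2 libraries per group limit the precision, most at genes with few counts such as Robo4.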
